A study of Mus musculus with 31 samples.

Results

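The genes described here encode the proteins of the cytosolic ribosome. They were chosen by symbol: protein-coding genes beginning with Rpl or Rps and a digit, together with Rpsa, Rplp0, Rplp1 and Rplp2, without the symbols holding -ps and without the ribosomal S6 kinases. The rule found 86 of the 52636 genes listed, of which 43 encode proteins of the large subunit, 31 proteins of the small subunit and 3 the acidic stalk, while 7 are paralogs of another member, 1 (Rpl7l1) is a paralog acting in ribosome assembly and 1 (Rps19bp1) encodes a binding partner of RPS19 and no ribosomal protein. RNA was sequenced from punches of the right caudate putamen (CPu) of 31 female mice aged 8 to 11 weeks. The 4 groups were vehicle administered wild type (WT) mice (n = 8), vehicle administered Brd1+/- mice (n = 7), imipramine (IMN) administered WT mice (n = 8) and IMN administered Brd1+/- mice (n = 8). Brd1+/- mice carry a heterozygous targeted deletion of exons 3 to 5 of Brd1, which encodes a chromatin scaffold protein, on a C57BL/6NTac background, and WT mice were their litter mates. IMN, a tricyclic antidepressant, was injected subcutaneously at 10 mg/kg and vehicle was saline. All mice, those of the control groups included, were injected on both days of testing, went through a tail suspension test, an open field and a forced swim test, and were killed after the swim. The constitutive deletion affects every cell, and a punch holds neurons, glia and vessels together, so that a lower value in bulk RNA from fewer cells of a type cannot be told apart from one due to less RNA per cell.

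The ribosome joins a small subunit, which reads the mRNA, and a large subunit, which forms the peptide bond. Each ribosomal protein is present in a single copy per ribosome apart from those of the stalk, where RPLP0 anchors dimers of RPLP1 and RPLP2 that bind translation factors. In vertebrates the mRNAs of ribosomal proteins start with a C followed by a run of pyrimidines, the 5′ terminal oligopyrimidine (TOP) motif, through which mTORC1 and LARP1 control their translation together. In neurons these mRNAs are also found in axons and dendrites. Most ribosomal protein genes have many processed pseudogenes elsewhere in the genome.

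The start sites of the genes are shown because the pyrimidine tract, is the sequence by which the mRNAs of this family are known. RefSeq promoters of GRCm38.p6, each of 300 bases with 250 before the annotated start, were found for 66 of the 86 genes (78 promoters). A run of C and T of at least 8 bases lay within 20 bases of the start on the transcribed strand in 31 of 78 promoters (39.7%), against 16% of all 32851 promoters in the table. On the opposite strand, where it reads as A and G, such a run was found in 6.41% and 17.7%. The ETS motif CCGGAAGT, searched on both strands over 300 bases, was found in 15.4% against 3.89%, and a C stood at the annotated start in 29.5% against 16.3%. Below, 10 bases before the annotated start and 20 from it are printed 5′ to 3′. Capitals mark what is printed of the longest run of C and T within 20 bases of the start. The first 4 show a tract at the start, and the last 3 are genes with the smallest p in the comparison of genotypes under vehicle. Of these 3 only Rps15a has a run of at least 8 bases, with its longest before the annotated start and another across it.
Rps6 (chr4:86857348-86857377, minus strand): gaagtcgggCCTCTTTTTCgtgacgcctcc
Rps27 (chr3:90213629-90213658, minus strand): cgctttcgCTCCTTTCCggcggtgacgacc
Rplp2 (chr7:141447641-141447670, plus strand): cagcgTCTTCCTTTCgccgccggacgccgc
Rpl28 (chr7:4792955-4792984, plus strand): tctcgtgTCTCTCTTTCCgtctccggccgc
Rps15a (chr7:118116128-118116157, minus strand): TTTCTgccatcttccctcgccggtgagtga
Rps28 (chr17:33824543-33824572, minus strand): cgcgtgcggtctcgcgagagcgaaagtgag
Rpl37a (chr1:72711250-72711279, plus strand): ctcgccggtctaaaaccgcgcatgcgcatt
In Rps28 and Rpl37a the first longest run lay before the bases printed and had 4 and 5 bases. In Rps15a the longest run has 10 bases, of which the last 5 are printed in capitals. A shorter run, in lower case, spans its annotated start. The gene starts given below for Rps15a and Rpl37a come from GENCODE and lie outside the bases printed. A match describes letters in an annotated window, and the annotated start can lie some bases from the start that cells use.

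Of the 86 genes, 84 were above 0 TPM, which is a level per length of transcript scaled to the same total in each mouse, in at least 1 mouse, 83 were above 0.1 TPM in all 31 mice, and Rpl10l and Rpl39l were listed at 0 in every mouse. Over the 83 detected genes the median of the mean levels was 111 TPM, with 66 genes between 50 and 300 TPM. Rplp1, of the stalk, had the highest level with a mean of 667 TPM (lowest mouse 485, highest 817), followed by Rps15 (580.5), Rpl13a (440.2), Rpl4 (388) and Rps27 (339 TPM). These 5 genes made up 21.5% of the summed level. The 5 lowest of the 84 genes were Rpl3l (0.295 TPM), Rps27l (11.3), Rpl7l1 (13.3), Rps15a (16.4) and Rpl29 (19.2 TPM). From Rps27l to Rplp1 the means spanned 59.2-fold. The other stalk genes had means of 110 TPM (Rplp0) and 170 TPM (Rplp2). Rpsa, the ribosomal homolog of the laminin receptor, had 152 TPM, Rps6, the substrate of S6 kinase, 151 TPM, Rps27a, made as a fusion with ubiquitin, 75.2 TPM, and Rps19bp1 21.8 TPM. The 4 X-linked genes had means of 74.9 (Rpl10), 75.1 (Rpl36a), 43.4 (Rpl39) and 123 TPM (Rps4x). The genes lie on 19 chromosomes, with 14 on chromosome 7, and 7 on chromosome 11.

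**Figure D1:**
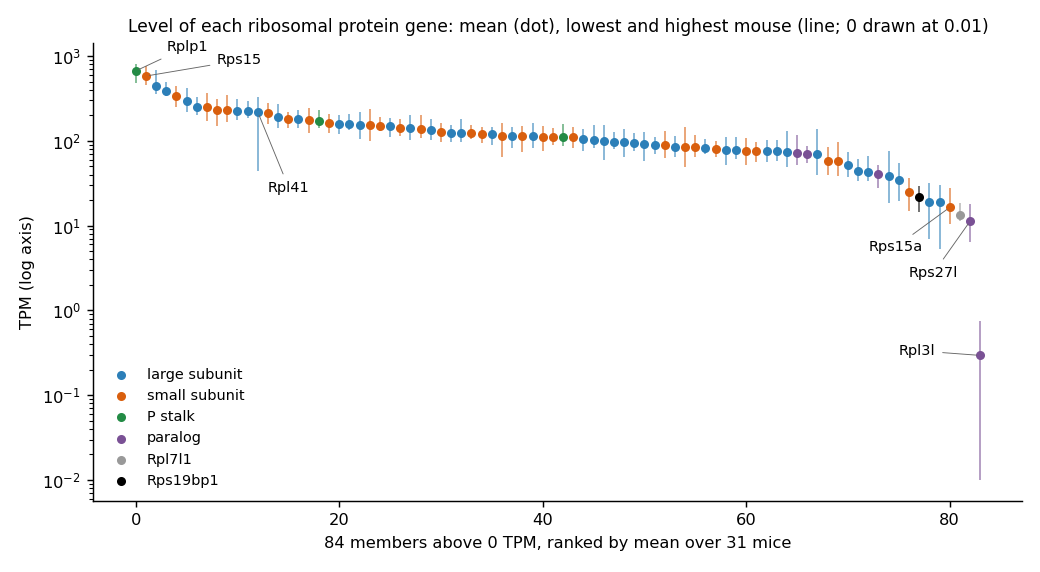
Mean TPM (dots, log axis) of the 84 ribosomal protein genes above 0 TPM, ranked over 31 mice and colored by role, with lines from the lowest to the highest mouse and values of 0 drawn at 0.01. Most genes lie between 50 and 300 TPM, Rplp1 is highest at 667 TPM, and Rpl3l stands apart at 0.295 TPM.

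In each of the pairs of a paralog and its partner by symbol, Rpl7l1 included, the paralog was lower. Rpl3 had a mean of 150 TPM and Rpl3l, known from muscle, 0.295 TPM with values of 0 in some mice of every group. Rpl10 and Rpl39 were at 74.9 and 43.4 TPM, and their paralogs Rpl10l and Rpl39l, known from testis, were listed at 0. Rpl22 was at 74.3 TPM and Rpl22l1, whose mRNA RPL22 represses, at 40.6 TPM. Rps27 was at 339 TPM, Rps27l, a target of p53, at 11.3 TPM, and Rps27rt, a retrogene, at 70.8 TPM. The closest pair had 75.1 TPM for X-linked Rpl36a and 72.2 TPM for its autosomal copy Rpl36al. Rpl7 was at 102 TPM and Rpl7l1 at 13.3 TPM.

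How well reads can be assigned differed between these genes. Of the words of 50 bases, the read length, in a member's protein-coding transcripts, a median of 35.8% also occurred in transcripts of another annotated gene on either strand, up to 95.1% for Rpl35, and 29 genes shared more than 50% of their words. A total of 60 members had at least 1 processed pseudogene named after them. Rows of such pseudogenes summed to 4909 TPM on average over mice, against 11245 TPM for the members, and in 24 members the pseudogenes' sum was above the gene's own level. The ratio was highest for Rpl17 (584%), Rps15a (480%) and Rpl21 (396%), and it was 242% for Rpl31 and 220% for Rpsa. Values of these genes are therefore uncertain in level, since the authors' counting could place the same reads in either row. Rps28, Rpl37a and Rps14 had no pseudogene named after them, while 28.7%, 38.5% and 16.3% of their words occurred in other genes. Among the pairs above, 91.1% of the words of Rps27rt and 85.5% of those of Rpl36a occurred in other genes. Their levels beside those of Rps27 and Rpl36al are therefore uncertain.

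Levels varied little between mice. For the 83 members with a mean of at least 1 TPM, the median coefficient of variation over 31 mice was 14.5%, from 10.2% to 40.4%. It was 21.9% for the 17391 genes with a mean of at least 1 TPM and 16.7% for the 2467 genes with a mean between 50 and 300 TPM. The most variable of the 83 members were Rpl21 (40.4%), Rpl18 (38.4%) and Rpl35a (32.7%), each with named pseudogenes. Rpl3l, below that mean, was not ranked. Rpl21 ranged from 10.1 to 29.9 TPM within vehicle administered WT mice alone. As deviations from group means, the genes moved together across the 31 mice: the correlation of each gene with the mean of the others had a median of 0.69, from 0.13 (Rps13) to 0.93 (Rpl35), and was above 0.5 for 65 of 83. The median correlation between pairs of members was 0.47, against 0.13 between pairs of 2401 other genes of 50 to 300 TPM. These correlations describe 31 libraries in which all genes share the same total, depth and tissue composition. Taking each gene relative to the mean of the others lowered the median standard deviation from 0.20 to 0.14 on the log2(TPM + 1) scale.

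Some libraries stood apart from their labels. Brd1 itself followed the genotypes, with a mean of 22.5 TPM (SD 2.97) in WT and 13.4 TPM (SD 2.02) in Brd1+/- mice under vehicle and of 19.9 TPM (SD 2.67) and 12.8 TPM (SD 1.04) under IMN. WT vehicle mouse 7, labelled female, had 26.8 TPM of Y-linked genes, and no other mouse had more than 0.188 TPM. Markers of striatal neurons (10 genes, mean log2(TPM + 1)) were between 8.16 and 9.10 in the 23 mice of the other 3 groups and between 3.20 and 9.16 in vehicle administered WT mice, where mice 1 and 2 had 6.02 and 3.20. Markers of cortical neurons (10 genes) were at 5.03 to 5.90 in 6 of 8 vehicle administered WT mice, at 1.15 and 1.23 in WT vehicle mice 6 and 8, at 1.44 to 3.48 in vehicle administered Brd1+/- mice, at 5.18 and 4.58 in WT IMN mice 5 and 8 and at or below 3.95 in the other IMN administered mice. The mitochondrial genome held a mean of 25.2% of TPM (SD 3.45) in WT and 30.5% (SD 1.45) in Brd1+/- mice under vehicle, and of 29.8% (SD 2.02) and 31% (SD 1.19) under IMN. Each mouse's TPM sum to a fixed total, so that a larger mitochondrial share lowers all other values.

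The summed level of ribosomal protein genes was lowest in vehicle administered Brd1+/- mice, and groups overlapped. The lowest, median and highest mouse had 1.05%, 1.17% and 1.41% of TPM in vehicle administered WT mice, and 0.910%, 1.02% and 1.32% in vehicle administered Brd1+/- mice. IMN administered mice had 1.06%, 1.13% and 1.18% (WT) and 0.917%, 1.14% and 1.27% (Brd1+/-). Single mice set the ends of these ranges. WT vehicle mouse 2 was the highest of its group in 43 of 83 genes, Brd1+/- vehicle mouse 6 in 67 of 83, and Brd1+/- IMN mouse 4 was the lowest of its group in 48 of 83. With the mitochondrial genome alone left out, the mean share was 1.59% in WT (SD 0.134) and 1.5% in Brd1+/- mice (SD 0.177) under vehicle. When TPM were rescaled over the rows other than the mitochondrial genome and the unprocessed pseudogenes, some of which are nuclear copies of mitochondrial genes, the mean was 1.92% in both genotypes under vehicle (SD 0.181 in WT and 0.207 in Brd1+/- mice), and 2.04% (SD 0.0794) and 2.09% (SD 0.200) under IMN. The ratio of large to small subunit TPM was 1.25 (SD 0.0265) in WT and 1.24 (SD 0.0482) in Brd1+/- mice under vehicle, and 1.21 (SD 0.0467) and 1.21 (SD 0.0455) under IMN.

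**Figure D2:**
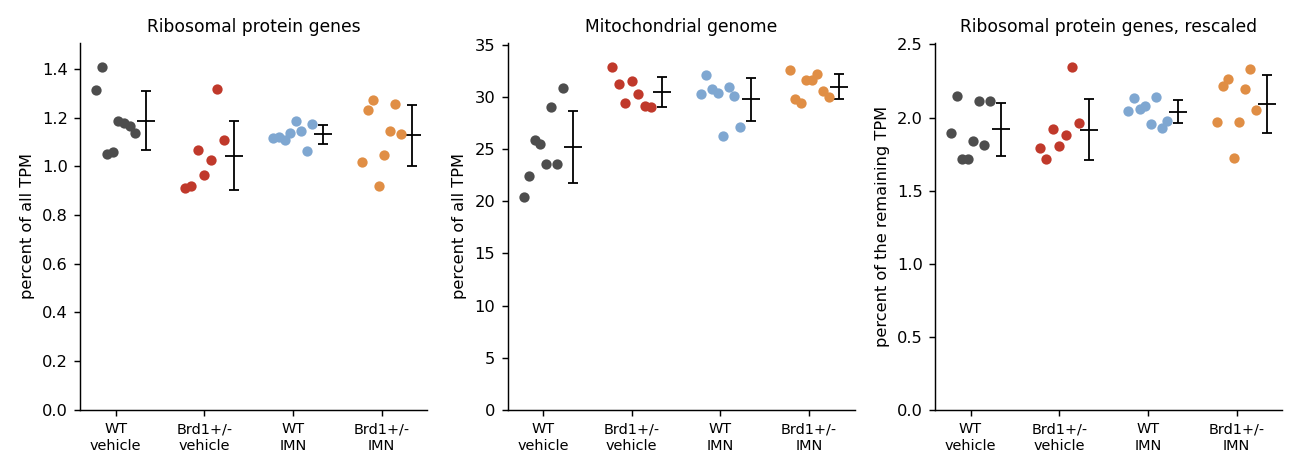
Share of TPM held by ribosomal protein genes (left), by the mitochondrial genome (middle), and by ribosomal protein genes after rescaling without mitochondrial and unprocessed pseudogene rows (right), one point per mouse with mean and SD beside each group. Vehicle administered Brd1+/- mice have the lowest mean share on the left, 1.04%, and the same mean as WT mice, 1.92%, on the right.

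The comparison of genotypes under vehicle asked which of these genes differ at baseline. Most were lower in Brd1+/- mice by a small amount: 79 of 84 genes tested had a negative log2 fold change, with a median of −0.20, while 72.8% of all 23200 genes tested were lower and their median was −0.13. At p under 0.01, 5 genes were lower and 0 higher, which is 5.95% of the members against 13.6% of all genes tested (12.1% lower and 1.47% higher). No member, and no gene tested, was under the FDR of 5% (limma). Without WT vehicle mouse 8 the members under that FDR were 16 (5482 genes in all) and without WT vehicle mouse 6 they were 6 (4563 genes). These are the only vehicle administered WT mice with low cortical markers. With all mice kept, members were also under that FDR when genes of a mean of at least 1 TPM alone were tested (2 members, 1833 genes) and with all 4 groups in one fit (16 members, 4963 genes). At p under 0.05 there were 34 members, each of them lower, against 30.9% of all genes. By role, 31 of 31 small subunit, 39 of 43 large subunit and 3 of 3 stalk genes were lower, with 4, 1 and 0 at p under 0.01. The tissue markers moved with these shifts. With the striatal markers in the fit the median of the members was −0.10 (all genes −0.08) and 75 of 84 were lower. At p under 0.01 were 2 members (2.38%) against 1.48% of all genes. With the cortical markers the median was −0.16 (all genes −0.05) and 79 were lower, with 3 members at p under 0.01 (3.57%) against 1.74%. Over the mice with a cortical marker mean under 4, only 2 of them WT, 78 of 83 members were lower with a median of −0.16 (all genes 0.01). The shifts also went with the scaling. With median-of-ratios scaling, which moved the median of all genes tested from −0.13 to 0.0023, the median of the members was −0.0088 and 45 of 84 were lower, and with TPM rescaled without mitochondrial and unprocessed pseudogene rows it was −0.02 with 48 lower. The lower genes among all those at p under 0.01 were 89.2% in deposited TPM and 56.5% after median-of-ratios scaling.

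**Figure D3:**
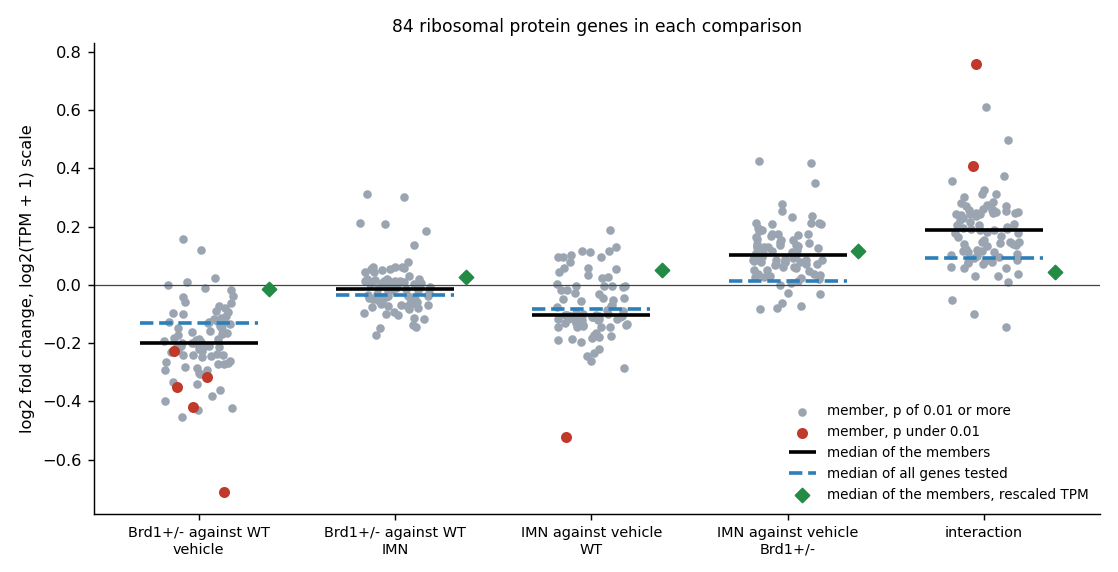
Log2 fold change of each of the 84 genes tested in the 4 comparisons and the interaction, with genes at p under 0.01 in red, the median of the members as a black line, the median of all genes tested as a dashed blue line, and the members' median after rescaling as a green diamond. The points lie mostly below 0 for the genotype under vehicle and mostly above 0 for IMN in Brd1+/- mice, and the diamond for the genotype under vehicle lies at −0.02.

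The 5 genes at p under 0.01 were Rps15a, Rps28, Rpl37a, Rps14 and Rps27a, with 4 in the small subunit. Rps15a (chromosome 7, 118104372 to 118116188, minus strand) encodes a small subunit protein and was at 14.5, 23.8 and 27.6 TPM in the lowest, median and highest vehicle administered WT mouse and at 10.4, 12.4 and 15.2 TPM in vehicle administered Brd1+/- mice. Brd1+/- vehicle mouse 3 was above WT vehicle mice 6 and 8, and the other Brd1+/- mice were below every WT mouse. The log2 fold change was −0.71 (SE 0.14, 95% confidence interval −1.02 to −0.41, adjusted p = 0.0556), a level at 0.61 of WT on the TPM + 1 scale. Rps28 (chromosome 17, 33819027 to 33824562, minus strand), a small subunit protein near the mRNA exit, was at 103, 121 and 145 TPM in WT and at 81.5, 84 and 117 TPM in Brd1+/- mice. Of the Brd1+/- mice 5 were below every WT mouse, and mice 6 and 7 lay within the WT range. The log2 fold change was −0.42 (SE 0.10, 95% confidence interval −0.64 to −0.20, adjusted p = 0.0556).

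Rpl37a (chromosome 1, 72711290 to 72713813, plus strand), of the large subunit, was at 94.7, 112 and 137 TPM in vehicle administered WT mice and at 79.7, 85.4 and 116 TPM in vehicle administered Brd1+/- mice, with a log2 fold change of −0.32 (SE 0.10, adjusted p = 0.0636). Rps14, of the small subunit, was at 206, 244 and 349 TPM and at 167, 196 and 261 TPM, with a log2 fold change of −0.35 (SE 0.12, adjusted p = 0.0701). Rps27a (chromosome 11, 29545846 to 29548109, minus strand) was at 70.7, 80.8 and 95.7 TPM and at 62.0, 68.3 and 80.3 TPM, with a log2 fold change of −0.23 (SE 0.08, adjusted p = 0.0704). In each of these 3 genes the groups overlapped, with Brd1+/- vehicle mouse 6 the highest of its group. The number of genes at p under 0.01 rested on single mice: without Brd1+/- vehicle mouse 6 it was 26, which is 31% of the members against 12.1% of all genes and turns round the order of those shares. Without WT vehicle mouse 8 it was 13 (15.5% against 22.4%) and without WT vehicle mouse 3 it was 8 (9.52% against 12.4%). Without WT vehicle mouse 1, 2 or 5, or Brd1+/- vehicle mouse 1, 2, 4 or 5, it was 2 (2.38% against 8.89% to 10.5%). Without Brd1+/- vehicle mouse 7 it was 3 (3.57% against 11.3%). Rps15a and Rps28 were at p under 0.01 in each of these 15 fits. With median-of-ratios scaling, quantile normalization or rescaled TPM, Rps15a was the only member at p under 0.01 (−0.53, −0.51 and −0.55) and Rps28 missed it (−0.23, −0.22 and −0.24). Without WT vehicle mouse 7, the count remained 5.

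**Figure D4:**
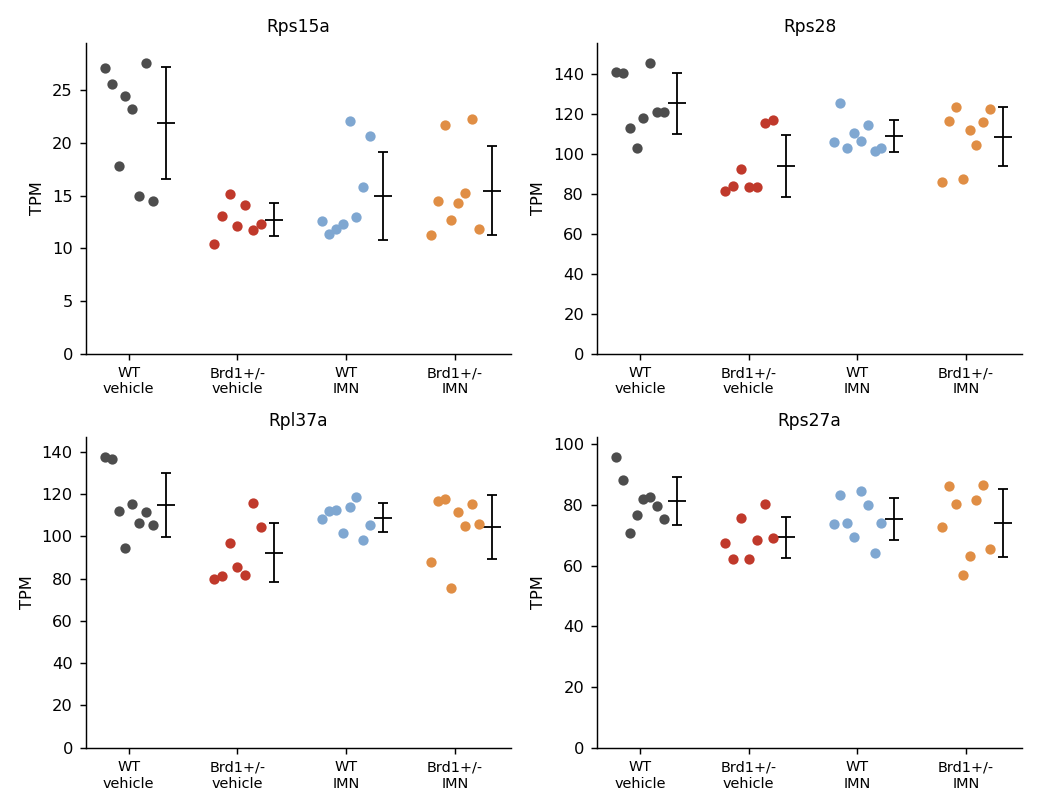
TPM of Rps15a, Rps28, Rpl37a and Rps27a in each mouse, with mean and SD beside each group. In Rps15a the WT vehicle mice reach 27.6 TPM and the Brd1+/- vehicle mice at most 15.2 TPM, and in Rps28 5 of 7 Brd1+/- vehicle mice lie below every WT vehicle mouse.

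Rps15a was high where the markers of cortical neurons were high, in all but 2 mice, and Rps28 showed no such order. In the 6 vehicle administered WT mice with cortical markers at 5.03 to 5.90, Rps15a was between 17.9 and 27.6 TPM, and in mice 6 and 8, with cortical markers at 1.15 and 1.23, it was 15.0 and 14.5 TPM. In WT IMN mice 5 and 8, with cortical markers at 5.18 and 4.58, it was 22.1 and 20.7 TPM, and in the other 6 mice of that group between 11.4 and 15.8 TPM. Brd1+/- IMN mice 3 and 7 went against this order, with 21.7 and 22.3 TPM at cortical markers of 1.81 and 3.73. Rps28 was at 145 and 121 TPM in WT vehicle mice 6 and 8 and between 103 and 141 TPM in the other mice of the group. Of the 10 cortical markers, 10 were lower in vehicle administered Brd1+/- mice, 2 of them at p under 0.01, and 10 of 10 striatal markers were higher, 1 at p under 0.01. Of 10 interneuron markers 3 were lower and 1 higher at p under 0.01, of 10 microglial markers 1 was higher, and 0 passed among those of oligodendrocytes, astrocytes, endothelium, choroid plexus with ependyma, and erythrocytes. When the mean of the cortical markers was added to the fit, the log2 fold change was −0.41 for Rps15a and −0.46 for Rps28, both at p under 0.01. Over the mice with a cortical marker mean under 4, only 2 of them WT, Rps15a had a log2 fold change of −0.21 and missed p under 0.01, Rps28 had −0.51 and passed it, and Rpl18 (large subunit) also passed it with −1.04. Rpl18 was highest in the same WT vehicle mice 6 and 8, with 60.4 and 66.6 TPM against 27.8 to 47.1 TPM in the other 6. Rpl7l1 had the order of Rps15a, with 11.7 and 12.5 TPM in these mice and 15.2 to 18.5 TPM in the other 6. Summed with its named pseudogenes, Rps15a had −0.33 and remained at p under 0.01. Cortical markers were at 5.03 to 5.90 in those 6 vehicle administered WT mice and at most 3.48 in vehicle administered Brd1+/- mice. These fits therefore cannot separate genotype from tissue composition, and the part of composition in these values was not tested.

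**Figure D5:**
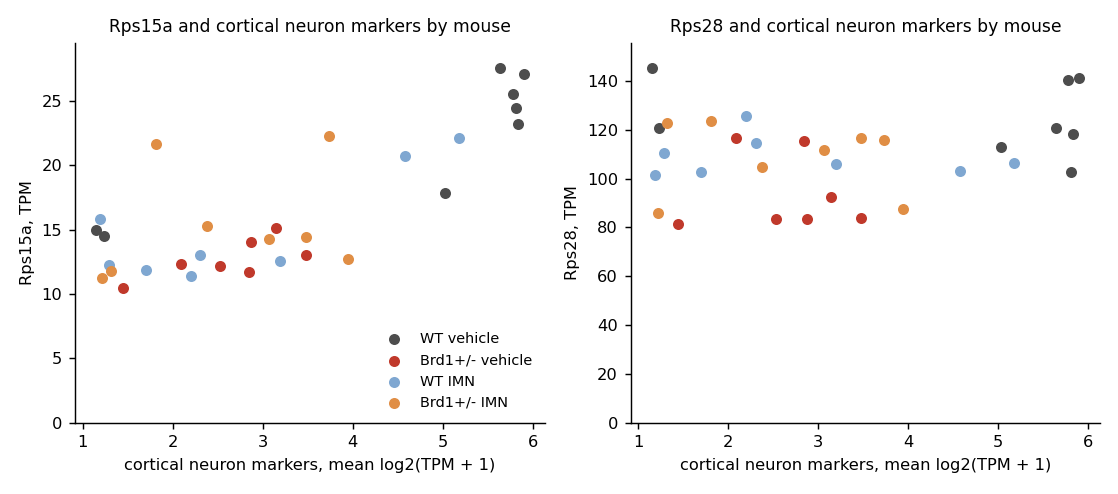
TPM of Rps15a (left) and Rps28 (right) in each mouse against the mean log2(TPM + 1) of 10 cortical neuron markers, colored by group. The Rps15a values above 20 TPM are in mice with cortical markers above 4, apart from Brd1+/- IMN mice 3 and 7, while Rps28 has high values at both ends.

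Genes of the stalk and the other genes named by role overlapped between all 4 groups. Rplp1 was at 551, 676 and 761 TPM in the lowest, median and highest vehicle administered WT mouse, at 498, 554 and 796 TPM in vehicle administered Brd1+/- mice, at 667, 704 and 772 TPM in IMN administered WT and at 485, 705 and 817 TPM in IMN administered Brd1+/- mice. The range was narrowest in IMN administered WT mice, whose lowest mouse was near the median of vehicle administered WT mice. Rplp2 was at 163, 168 and 231 TPM, 142, 167 and 193 TPM, 146, 160 and 197 TPM and 145, 169 and 191 TPM in the same order of groups. Its medians differed by less than its range in any group. Rpsa was at 109, 146 and 235 TPM, 116, 137 and 173 TPM, 118, 141 and 172 TPM and 99.7, 159 and 234 TPM. It was most spread in vehicle administered WT and IMN administered Brd1+/- mice. Rps6 was at 135, 145 and 192 TPM, 133, 139 and 166 TPM, 130.4, 153 and 156 TPM and 138, 151 and 180 TPM, with the smallest coefficient of variation of the 83 genes. Rpl35a, among the most variable, ranged under vehicle from 43.1 to 136 TPM (WT) and from 43.8 to 67.9 TPM (Brd1+/-), and under IMN from 54.8 to 104 TPM (WT) and from 39.5 to 98.6 TPM (Brd1+/-).

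The remaining genes named by role did not pass p under 0.01 under vehicle. The stalk genes had log2 fold changes of −0.24 (Rplp0, SE 0.10), −0.18 (Rplp1, SE 0.11) and −0.11 (Rplp2, SE 0.09). Rpsa had −0.17 (SE 0.14) and Rps6 −0.11 (SE 0.09, 95% confidence interval −0.29 to 0.08). The X-linked genes had −0.19 (Rpl10), −0.23 (Rpl36a), −0.26 (Rpl39) and −0.09 (Rps4x). Rps27l, at 9.03, 12.1 and 17.7 TPM in the lowest, median and highest WT and at 7.65, 9.71 and 11.8 TPM in Brd1+/- mice, had −0.34 (SE 0.13, adjusted p = 0.0958), and Rpl7l1 had −0.24 (SE 0.09, adjusted p = 0.102). The 5 genes with a value above 0 included Rpl34 (0.16, SE 0.21), Rpl3l (0.12, SE 0.16) and Rpl21 (0.01, SE 0.32). Genes with and without a run of at least 8 C and T at the start had medians of −0.20 (30 genes) and −0.20 (34 genes), and genes with more than 50% of their words in other genes had −0.19 (29 genes) against −0.20 for the rest (55 genes).

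Under IMN the genotypes differed by less. Of 84 genes 51 were lower and 33 higher in Brd1+/- mice, against 63.3% of 23339 genes lower, with a median log2 fold change of −0.01. The direction turned with the scaling. There were 29 genes lower and a median of 0.03 under median-of-ratios scaling, 27 lower and 0.03 under quantile normalization and 30 lower and 0.03 with rescaled TPM. It also turned without Brd1+/- IMN mouse 4 (29 lower, median 0.02), mouse 1 (39 lower, 0.0028) or mouse 5 (40 lower, 0.0024). Over the mice with a cortical marker mean under 4, 41 were lower with a median of 0.00056. At p under 0.01 there were 0 members, against 0.703% of all genes (0.514% lower), and 0 members under the FDR of 5% (limma), against 0.00428% or 1 gene. At p under 0.05 there was 1 (all genes 3.92%), Rpl7l1, with 12.5, 13.2 and 15.1 TPM in the lowest, median and highest IMN administered WT mouse and 11.3, 11.8 and 13.3 TPM in IMN administered Brd1+/- mice (log2 fold change −0.15, SE 0.06, adjusted p = 0.998). The ranges overlapped. Rps15a had 0.05 (SE 0.16) and Rps28 −0.01 (SE 0.08), and the largest values, 0.31 for Rpl21 (SE 0.26) and 0.30 for Rpl22 (SE 0.18), did not pass either threshold. With no filter on low TPM, and without Brd1+/- IMN mouse 3, Rpl7l1 was at p under 0.01.

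IMN against vehicle in WT mice gave mostly lower values, which the scaling turned. In deposited TPM 66 of 84 genes were lower with a median of −0.10 (all genes −0.08), while 67.5% of 23579 genes were lower. Without WT vehicle mouse 2 the median was −0.06. Cortical markers were lower in 10 of 10 genes (median −1.96), striatal markers higher in 10 of 10 (1.48) and erythrocyte markers lower in 5 of 5 (2 at p under 0.01), and the median of the members with the striatal markers in the fit was 0.01, with 38 lower. At p under 0.01 there was 1 member (1.19%) against 6.95% of all genes (5.6% lower and 1.35% higher), and 0 under the FDR of 5% against 0.00424% or 1 gene. There were 7 at p under 0.05, 6 of them lower (all genes 23.1%). The gene at p under 0.01 was Rps15a, at 14.5, 23.8 and 27.6 TPM in the lowest, median and highest vehicle administered WT mouse and 11.4, 12.8 and 22.1 TPM in IMN administered WT mice (log2 fold change −0.52, SE 0.17, adjusted p = 0.141), with overlapping ranges. It was no longer at that threshold with the cortical (−0.22) or the striatal (−0.32) markers in the fit, with rescaled TPM (−0.38), over the mice with a cortical marker mean under 4 (−0.20) or summed with its named pseudogenes (−0.10). Over the mice with a cortical marker mean under 4 the member at that threshold was Rpl18, with −1.06 (1.19% of members against 2.09% of all genes). No member was at p under 0.01 without WT vehicle mouse 1, 2, 5 or 7 or without WT IMN mouse 1, 3, 4 or 6, and without WT vehicle mouse 8 there were 3 (3.57% against 15.3% of all genes), with 1 of 2459 genes under the FDR of 5%. After rescaling without mitochondrial and unprocessed pseudogene rows, 70 of 84 genes were higher with a median of 0.05, and the 5 genes at p under 0.01, Rpl3, Rpl30, Rpl27a, Rps27 and Rpl31, were higher by 0.21 to 0.35 on the log2 scale. These are 5.95% of the members against 5.78% of all genes in that fit, a share at the background. In deposited TPM, Rpl31 had 0.19 (SE 0.08) and Rps27 0.13 (SE 0.08), neither at p under 0.01. Rps27 was at 261, 329 and 369 TPM in vehicle administered and at 322, 355 and 427 TPM in IMN administered WT mice.

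IMN against vehicle in Brd1+/- mice gave higher values in 78 of 84 genes, with a median of 0.10 where that of all 23020 genes was 0.01 and 45.6% of them were lower. With TPM rescaled as above 78 were again higher, with a median of 0.12. However, 0 members were at p under 0.01, against 1.83% of all genes (0.964% lower), 0 were under the FDR of 5% (limma), as were 0 of all genes, and 1 was at p under 0.05 (all genes 7.09%). This was Rpl35a, of the large subunit, at 43.8, 48.6 and 67.9 TPM in the lowest, median and highest vehicle administered and 39.5, 78.0 and 98.6 TPM in IMN administered Brd1+/- mice (log2 fold change 0.43, SE 0.18, adjusted p = 0.655). The IMN administered mouse 5 was below every vehicle administered mouse, and without it the log2 fold change was 0.54, at p under 0.01. Rps28 had 0.21 (SE 0.11) and Rps14 0.21 (SE 0.11), and the summed level overlapped between the groups as given above. Markers of oligodendrocytes were higher in 10 of 10 genes with a median of 0.48 and 0 at p under 0.01, and their part in the values was not tested. Markers of striatal neurons were lower in 10 of 10 genes with a median of −0.19 and 1 at p under 0.01, and with them in the fit the median of the members was 0.06, with 21 of 84 genes lower.

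The interaction asked whether the effect of IMN differed between genotypes. It was above 0 in 81 of 84 genes with a median of 0.19 (all genes 0.09). Below 0 were 3 genes in deposited TPM, 30 after median-of-ratios scaling, 33 after quantile normalization and 31 with rescaled TPM. In deposited TPM 2 members (2.38%) were at p under 0.01 against 3.74% of 25394 genes (2.97% higher and 0.78% lower). Without Brd1+/- vehicle mouse 6 there were 4 members (4.76%) against 3.71% of all genes, and without WT vehicle mouse 1 the 2 members stood against 2.16%. There were 8 members at p under 0.05 (all genes 16.2%) and 0 under the FDR of 5%. Of all genes 32.8% were below 0. Rps15a had an interaction of 0.76 (SE 0.23, 95% confidence interval 0.30 to 1.22, adjusted p = 0.261), from −0.52 in WT and 0.23 in Brd1+/- mice. Rps28 had 0.41 (SE 0.13, 95% confidence interval 0.14 to 0.67, adjusted p = 0.261), from −0.20 and 0.21. Both contrasts draw on the vehicle groups that the comparison of genotypes under vehicle also uses. With the cortical markers in the fit Rps15a had 0.47 and missed p under 0.01, while Rps28 had 0.44 and passed it. With the striatal markers in the fit neither passed it (0.51 and 0.36), and the median over the members was 0.08. The members had a median of 0.05 under median-of-ratios scaling, where Rps15a passed (0.62) and Rps28 did not (0.27).

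Genes that work with the ribosomal proteins were mostly lower in Brd1+/- mice under vehicle, as were 72.8% of all genes, in lists that were chosen with earlier results known. Fau and Rack1, which encode ribosomal components but are named otherwise, had log2 fold changes of −0.25 and −0.16, neither at p under 0.01. The list of translation factors with TOP mRNAs also held Tpt1, Naca and Npm1, the last counted among the biogenesis genes too. Of its 20 genes, 18 were lower and 2 were at p under 0.01, both subunits of the initiation factor eIF3 (Eif3k −0.27 and Eif3h −0.20). Eef1a1, the elongation factor that delivers tRNA, had 0.11 and Eef2, which moves the ribosome along, −0.15. Of 54 ribosome biogenesis genes, 49 were lower and 7 were at p under 0.01 (13%), each of them lower, led by Polr1d, a subunit of RNA polymerases I and III (−0.41, SE 0.10), and Eif6, which keeps free large subunits apart (−0.58, SE 0.15). Of 24 genes of mTORC1 and TOP control, 23 were lower and 4 at p under 0.01, led by the activator Rheb (−0.49, SE 0.13) and Akt1s1, an inhibitor (−0.49, SE 0.14), and Mtor and Larp1 had −0.16 and −0.13. Of 78 genes of the mitochondrial ribosome, 70 were lower and 13 at p under 0.01 (16.7%), each of them lower, led by Mrps18b (−0.50, SE 0.12) and Mrpl49 (−0.29, SE 0.08). All adjusted p in these lists were above 0.05 (limma), and these shares stand beside 13.6% of all genes.

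In the other comparisons these lists held fewer genes at p under 0.01. For IMN in WT mice 6 of 54 biogenesis genes and 7 of 78 mitochondrial ribosome genes were lower at that threshold, beside 5.6% of all genes, led by Ebna1bp2 (−0.29), which acts in large subunit assembly, and Mrpl20 (−0.38). Mycn, a transcription factor that drives ribosomal genes, was lower by IMN in WT mice (−0.43, SE 0.11). Ddit4, an inhibitor of mTORC1 that stress hormones induce, was higher by IMN in WT (0.48, SE 0.16, adjusted p = 0.141) and in Brd1+/- mice (0.87, SE 0.15, adjusted p = 0.115), and the interaction was 0.40 (SE 0.23, adjusted p = 0.375). Mlst8, a subunit of mTORC1, was higher by IMN in Brd1+/- mice (1.18, SE 0.27, adjusted p = 0.30). Between genotypes under IMN the lists held 1 such gene, Mrps35, 1 of 78 of the mitochondrial ribosome, beside 0.703% of all genes, with a log2 fold change of −0.31 (adjusted p = 0.998). In the interaction 5 mitochondrial ribosome genes and the mTORC1 genes Akt1s1 and Sesn2 were above 0 at p under 0.01, beside 2.97% of all genes. Of the rows of ribosomal protein pseudogenes, 7 of 216 were lower at p under 0.01 in Brd1+/- mice under vehicle (12.1% of all genes) and 1 of 217 by IMN in WT mice. Of 37 mitochondrial genome rows 7 were higher at p under 0.01 in each of these comparisons, beside 1.47% and 1.35% of all genes.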

How the data were processed

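The authors deposited TPM for 52636 Ensembl genes in 31 mice, from reads of 50 bases (BGISEQ-500) aligned with HISAT2 2.1.0 to GRCm38 and quantified with StringTie 1.3.4. A total of 0 columns were left unused. TPM keep no read numbers, so depth is unknown and precision rests on the spread between mice, with no interval for counting error. Symbols, biotypes and positions came from GENCODE M21 (GRCm38), which held 52489 identifiers.

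Each comparison was fitted with limma 3.58.1 (R 4.3.3) on log2(TPM + 1), with a trend, two-sided, keeping genes that exceeded 0.1 TPM in 7 or more of the fitted mice, at p under 0.01 and at a Benjamini-Hochberg FDR of 5% over all genes tested. The authors' edgeR was not run, since it needs counts. The interaction used all mice. The fit was tested on simulated data. Fold changes understate those of low genes.

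Members and gene lists were chosen with earlier results of these data known. Named genes were up to 5 with the smallest p in each direction under 0.01, the 5 highest, 5 lowest and 3 most variable, genes fixed by role, paralogs with their partners, X-linked genes, and up to 2 per direction of each other list; others named, among them the genes called under an alternative, were chosen after their values were seen. Marker lists covered cortical, striatal and interneurons, oligodendrocytes, astrocytes, microglia, endothelium, choroid plexus with ependyma, and erythrocytes. Alternatives were other pseudocounts, filters, scalings, weights and covariates, each mouse left out, and 4 chosen after seeing the data: members summed with named pseudogenes, scaling to the members' geometric mean, rescaling without mitochondrial and unprocessed pseudogene rows, and mice of low cortical markers alone.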

Additional observations from a re-analysis of the deposited data

Results flagged for a closer look

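Among 140 sets of a quantity and a group, 16 had a mouse far from the rest (11.4%, where chance gives about 1 in 20 for independent normal values). The sets are not independent, since they share mice and the genes move together, so the 2 shares are not a test. In the Y-linked genes the mice far from the rest were WT vehicle mouse 7 with 26.8 TPM and Brd1+/- vehicle mouse 1 with 0.171 TPM. Brd1+/- vehicle mouse 6 was the highest of its group in Rps15 (760.5 TPM, next mouse 580), Rpl4 (436 TPM, next 371), Rpl36al (87.2 TPM, next 68.5), Rpl7 (155 TPM, next 105) and Rps4x (154 TPM, next 122). WT vehicle mouse 2 was highest in Rplp2 (231 TPM, next 192) and Rpl39 (65.9 TPM, next 50.5). WT IMN mouse 2 was highest in Rps27 (427 TPM, next 363) and Rpl29 (30.2 TPM, next 21.2) and lowest in Rpl10 (63.0 TPM, next 72.6). Brd1+/- IMN mouse 3 was highest in Rpl21 (30.8 TPM, next 23.3) and Rpl10 (101 TPM, next 77.9). WT IMN mouse 7 was lowest in Rps6 (130 TPM, next 146) and WT IMN mouse 8 highest in Rps19bp1 (29.2 TPM, next 22.8).

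In the interaction test Rps15a (log2 difference 0.76) and Rps28 (0.41) were at p under 0.01. These 2 genes are 2.38% of the members tested, against 3.74% of all genes, and neither was under the FDR of 5% (limma, adjusted p = 0.261 for both). With the striatal markers in the fit neither was at p under 0.01 (0.51 and 0.36).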

How the results depend on the processing

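For Brd1+/- against WT under vehicle, 5 members were at p under 0.01. The count was 1 with median-of-ratios scaling (median log2 fold change −0.0088), quantile normalization (0.00083) or TPM rescaled without mitochondrial and unprocessed pseudogene rows (−0.0154). It was 2 with scaling to the members' geometric mean (0.0019), the striatal markers in the fit or mice of low cortical markers alone. Scaling to the members' geometric mean holds their mean log level equal in each mouse, so a median near 0 is fixed by design in every comparison. The count was 3 without a trend or with the cortical markers in the fit. It was 16 with all 4 groups in one fit (19% of members against 19.7% of all genes) and 17 with weights for each mouse (20.2% against 26.5%). Without a trend the shares were 3.57% and 13.4%, with the members' geometric mean 2.38% and 7.05%, and over mice of low cortical markers 2.41% and 0.892%. With the first 3 scalings members were at 1.19%, against 9.22%, 9.53% and 9.09% of all genes. Leaving out 1 mouse gave 2 (2.38% of members against 8.89% to 10.5% of all genes) to 26 (31% against 12.1%). Members under the FDR of 5% were 0, but 2 of 1833 genes when those of a mean of at least 1 TPM alone were tested. They were 16 of 4963 genes in the one fit and 19 of 6854 with weights. Between genotypes under IMN the count at p under 0.01 was 1 with no filter (1.19% of members against 0.69% of all genes). With 1 mouse left out it was 0 to 1, the latter without Brd1+/- IMN mouse 3 (1.19% against 1.09%).

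For IMN in WT mice the count of 1 (lower) became 3 with median-of-ratios (2 of them higher, median 0.022), 7 with quantile (6 higher, 0.063), 5 with rescaling (5 higher, 0.0518), 3 with weights (1 higher), 2 with the members' geometric mean (2 higher) and 0 with the cortical markers, the striatal markers (median 0.0086) or the named pseudogenes added, and 0 to 3 with 1 mouse left out. All genes at p under 0.01 were 5.97%, 5.8%, 5.78%, 20.3% and 4.75% in the first 5 of these. In Brd1+/- mice leaving out 1 mouse gave 0 to 1, the latter without Brd1+/- IMN mouse 5 (1.19% of members against 1.94% of all genes). For the interaction the count of 2 became 1 with median-of-ratios (median 0.0489), quantile (0.0285), rescaling (0.046), the members' geometric mean (−0.0045), the cortical markers, the pseudogenes or mice of low cortical markers alone, and 0 with the striatal markers, and was 2 to 4 with 1 mouse left out. All genes at p under 0.01 were 3.17%, 3.39%, 3.16%, 2.75%, 0.925%, 3.74%, 0.597% and 0.52% under these settings, so that the member share of 1.19% was above that of all genes with the cortical markers or mice of low cortical markers. Under the FDR of 5%, IMN in WT mice had 3 members of 4857 genes with weights and 1 of 2291 in the one fit, and the interaction 1 of 2624 with weights. The cause of these changes was not tested. The directions of the named genes at p under 0.01 were kept in every fit run.

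Replicate numbers did not pair the mice: same-numbered deviations correlated above 0.1 in 1 of 7 and 2 of 8 pairs for genotype (vehicle, IMN) and in 2 of 8 and 3 of 7 for IMN (WT, Brd1+/-). With the replicate block the counts were 3, 0, 0, 1 and 2 in these comparisons and the interaction. All genes at p under 0.01 were 17.7%, 0.673%, 5.08%, 2.15% and 4.28%, and 3 of the 3583 genes under the FDR of 5% in the first were members. WT vehicle mouse 8 and Brd1+/- IMN mouse 8 had no partner of the same number. The block thus in effect left them out of the genotype comparison under vehicle and the IMN comparison in Brd1+/- mice. Leaving out WT vehicle mouse 8 without a block gave 16 members of 5482 genes under that FDR. With TPM alone, the depth that limits low genes such as Rpl3l is unknown.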
